A study of Mus musculus with 20 samples.

Results

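The p53 family and its ASPP regulators are 7 genes here. Trp53, Trp63 and Trp73 encode the transcription factors p53, p63 and p73, Mdm4 encodes an inhibitor of p53, and Trp53bp2, Ppp1r13l and Ppp1r13b encode the ASPP proteins ASPP2, iASPP and ASPP1. They were taken by name from a table of 51123 Ensembl gene identifiers. All 7 were found, and all 7 passed the filter on low counts in every fit.

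RNA was sequenced in bulk from mouse skin cells sorted for the fluorescent reporter tdTomato, in 20 libraries of 7 groups. Cutaneous squamous cell carcinomas (cSCC) that formed spontaneously gave 3 libraries from K14cre;Wwoxfl/fl;p53fl/fl mice (DKO cSCC) and 3 from K14cre;p53fl/fl mice (PKO cSCC). Epidermis of young mice, 100 to 120 days old, gave 3 libraries each from K14cre;Wwoxfl/fl;p53fl/fl (DKO), K14cre;p53fl/fl (PKO), K14cre;Wwoxfl/fl (WKO) and wild-type (WT) mice, and epidermis of WT mice of at least 400 days gave 2 (WT old). The K14cre transgene expresses Cre recombinase in keratinocytes with an active keratin 14 promoter. Skin cells that never expressed Cre, and do not descend from cells that did, keep the floxed genes. The labels call the replicates biological, give no age for tumour-bearing mice and no Cre status for WT mice, and do not say which exons are floxed.

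p53 is a tumour suppressor that stops the cell cycle or triggers apoptosis after DNA damage. p63 is the family member on which stratified epithelia depend, and its short ΔN form keeps basal keratinocytes proliferating. p73 shares their DNA-binding domain and occurs at a lower level in skin. MDM4 binds the activation domain of p53 and works with MDM2, the ubiquitin ligase that degrades it. ASPP1 and ASPP2 bind p53 family proteins and steer them to apoptotic targets, while iASPP inhibits p53 and is known in epidermis as a partner of p63.

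Total estimated counts per library ran from 11930153 to 17199262, and mitochondrial genes took 16.2% to 45.7% of them. Levels are given as CPM, counts scaled to library size, after scaling by trimmed means of M-values (TMM) over all 20 libraries. Each member had at least 15 counts in every library. The 8 markers of basal keratinocytes (Krt5, Krt14, Krt15, Itga6, Itgb4, Col17a1, Dst, Lamb3) were detected in every library. Their summed level was 16100 to 27300 CPM in DKO cSCC, 9590 to 29500 CPM in PKO cSCC, 11900 to 14000 CPM in young DKO, 3040 to 16300 CPM in young PKO, 13500 to 21600 CPM in young WKO, 4220 to 12200 CPM in WT old and 1980 to 3270 CPM in young WT. The sum of 10 T and NK cell markers ran from 15.6 to 83.2 CPM over the 6 tumours. It was 83.6 to 294 CPM in young DKO, 254 to 3320 CPM in young PKO, 47.2 to 911 CPM in young WKO, 135 to 277 CPM in WT old and 1550 to 2010 CPM in young WT. The sorted cells of young WT epidermis thus carried less basal keratinocyte RNA and more T cell RNA than the other groups, apart from the library PKO young 3, which had the lowest basal sum and the highest T cell sum of the young knockouts. In bulk samples, fewer cells of a type and less RNA per cell cannot be told apart.

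Trp53, a gene the study deleted, had 2.74, 2.86 and 45.5 CPM in DKO tumours and 4.38, 4.24 and 0.865 CPM in PKO tumours. In the young mice it had 3.31, 3.27 and 21.1 CPM in DKO, 5.9, 21.8 and 19.2 CPM in PKO and 40.4, 48.5 and 38.8 CPM in WKO. The WT libraries held 34.6 and 25.7 CPM when old and 30.7, 32.5 and 40.1 CPM when young. Trp53 RNA was thus low in 2 of 3 DKO libraries of each tissue and in all 3 PKO tumours. The library labelled DKO cSCC 3 held as much as WT epidermis, which goes against its label, and those labelled DKO young 3, PKO young 2 and PKO young 3 held intermediate levels. Wwox, the other deleted gene, which encodes the oxidoreductase WWOX, had 0.444, 1.31 and 1.87 CPM in DKO cSCC, against 13, 7.37 and 12.3 CPM in PKO cSCC. Among young libraries it stood at 0.926, 0.944 and 7.34 CPM in DKO and 1.29, 0.137 and 1.14 CPM in WKO, against 8.86, 8.16 and 7.65 CPM in PKO and 10, 9.26 and 8.75 CPM in WT. Wwox was therefore low in every library with the floxed allele except DKO young 3, the same library in which Trp53 was also only partly reduced. RNA from exons outside the floxed part still counts, so these levels do not measure protein.

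**Figure D1:**
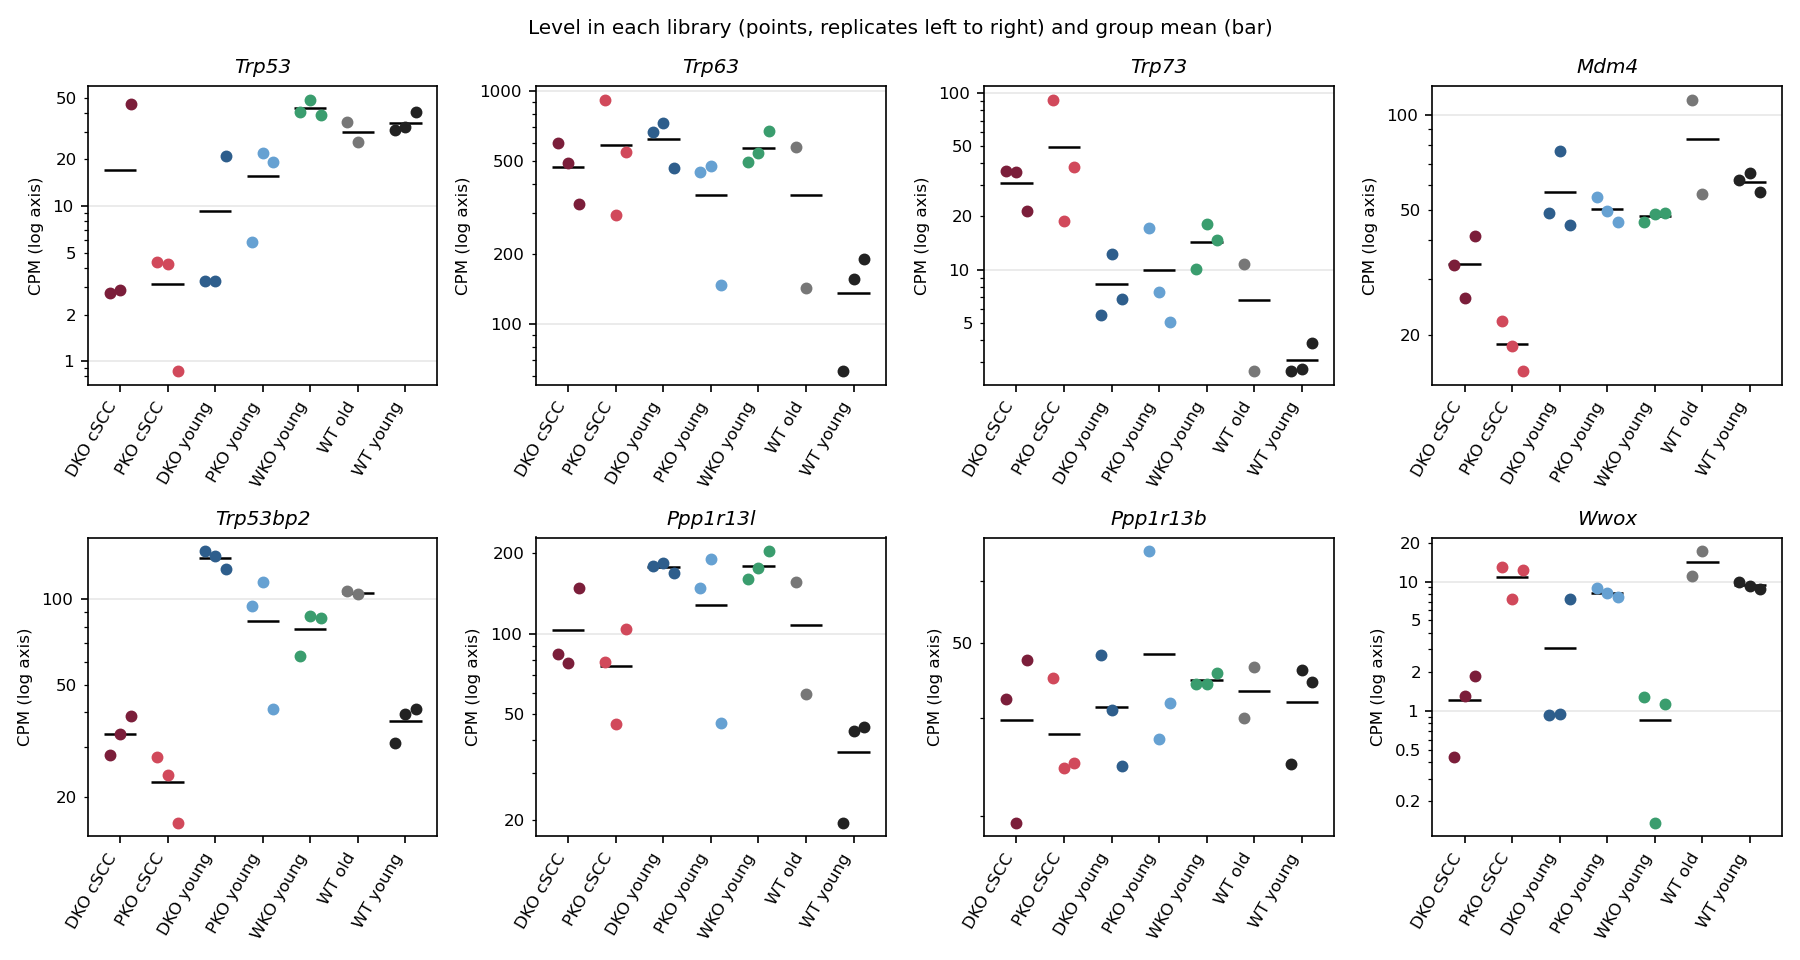
CPM of the 7 members and of Wwox (log axis) in each library, by group, with the group mean as a bar. Trp53 is low in PKO cSCC and in 2 of 3 libraries of each DKO group. Trp73 is highest and Mdm4 lowest in the tumours. Trp53bp2 is low in the tumours and in young WT, which overlaps DKO cSCC, and Ppp1r13b stays within 29.4 to 65.6 CPM.

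With the edgeR quasi-likelihood test and Benjamini-Hochberg adjustment over all genes, a call means an adjusted p under 0.05. In young DKO against WT epidermis 4 of the 7 members were called, all higher (Trp63, Trp73, Trp53bp2 and Ppp1r13l), where 15.8% of all genes tested were called higher, 12.1% lower and 27.8% either way. The same 4 were called higher in young WKO against WT, where 13.1% of genes were called higher, 8.34% lower and 21.4% either way. These comparisons share the WT libraries. The background count moved with single libraries. It was 4629 genes in DKO against WT, and 1609, 2959, 2958 and 2726 without DKO young 1, DKO young 2, WT young 1 and WT young 2. In WKO against WT it was 3563 genes, and 893, 965, 1088 and 1228 without WKO young 2, WKO young 3, WT young 1 and WT young 2. In young PKO against WT, no member was called, and 0.00601% of genes were. With the same test unadjusted, 4 members had p under 0.05, as did 4174 of 16627 genes. Without PKO young 3 the 4 genes above were called, among 2998 genes in all. With every library in, DESeq2 called 4 members and 2327 genes, and limma voom 5 members and 1883 genes.

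In PKO cSCC against young PKO epidermis, 3 members were called, Trp73 higher and Mdm4 and Trp53bp2 lower, where 11.5% of genes were called, 5.33% higher and 6.16% lower. In DKO cSCC against young DKO epidermis, 1 was called, Trp53bp2, lower, where 7.3% of genes were called, 3.27% higher and 4.03% lower. Of the genes called, 2087 in the PKO comparison became 1362, 1144 and 1221 without PKO young 1, PKO young 2 and PKO cSCC 1. In the DKO comparison 1326 became 265, 472, 585 and 478 without DKO young 1, DKO young 2, DKO cSCC 1 and DKO cSCC 2. Tumour and young epidermis differ in tissue state and age together, which cannot be told apart. In WT old against WT young epidermis 1 was called, Trp53bp2, higher, where 1.99% of genes were called, 1.73% higher and 0.261% lower. These 351 genes became 0 without any 1 of the WT young libraries and 1377 without PKO young 3, and every omission other than those of PKO young 1 and WT old 1 changed the count to at most 225 or at least 758. No member was called in DKO cSCC against PKO cSCC (0.00605% of genes called), PKO cSCC against WT old (0.0121%), DKO cSCC against WT old (0%), young DKO against PKO (0%) or young DKO against WKO (0.00601%). Unadjusted p under 0.05 (edgeR) was reached there by 1, 4, 3, 1 and 2 members, in that order. Over all genes it was reached by 1338, 4581 and 2402 of 16526 and by 2742 and 2275 of 16627. In the same order DESeq2 called 0, 3, 2, 0 and 1 members, and 200, 3031, 841, 328 and 596 genes in all.

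Groups with no overlap between their libraries were more frequent than calls. They were found for 5 of 7 members in young DKO against WT (48.4% of all genes), for 5 in young PKO against WT (27.6%) and for 5 in young WKO against WT (51.6%). In PKO cSCC against young PKO and in DKO cSCC against young DKO there were 4 each (25.1% and 30.3% of genes). Against WT old there were 4 in PKO cSCC (45.3%) and 3 in DKO cSCC (34.8%). Young DKO against PKO had 1 (15.8%), young DKO against WKO 2 (23.9%), DKO cSCC against PKO cSCC 2 (13.4%) and WT old against WT young 2 (40.4%). Where these shares are near the members' own, the count says nothing particular about the members.

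**Figure D2:**
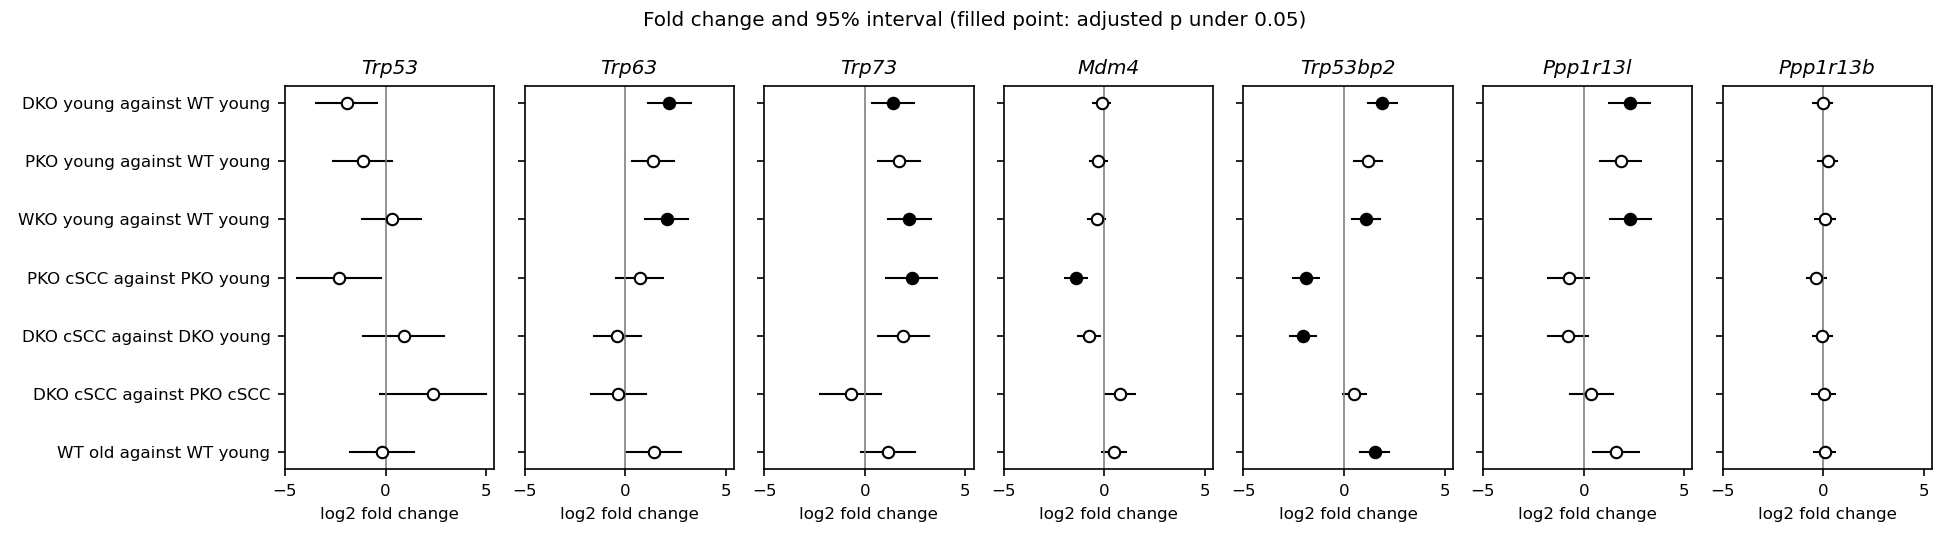
Log2 fold change of each member with its 95% interval in 7 comparisons. Filled points passed the adjusted threshold, and Trp53bp2 lies right of 0 in the young knockouts and left of 0 in tumours against young epidermis of the same genotype.

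Trp63 encodes p63, the master regulator of the epidermal lineage. It had 596, 493 and 327 CPM in DKO tumours, and 919, 295 and 546 CPM in PKO tumours. In young epidermis it had 670, 728 and 469 CPM in DKO, 450, 476 and 147 CPM in PKO and 498, 543 and 676 CPM in WKO. Levels in WT were 576 and 143 CPM when old and 63, 156 and 191 CPM when young. All DKO and WKO libraries were above all young WT libraries, while the libraries PKO young 3 and WT old 2 fell inside the young WT range. Trp63 rose in young DKO against WT by 2.18 on the log2 scale (SE 0.48, adjusted p = 0.0117, edgeR), and stayed called without any 1 library. In young WKO it rose by 2.07 (SE 0.48, adjusted p = 0.0183, edgeR). The call needed each of WT young 1, WT young 2, WKO young 2 and WKO young 3 (without any of them edgeR adjusted p 0.0519 to 0.0593). The difference in young PKO was 1.39 (95% interval 0.35 to 2.43, edgeR adjusted p = 0.109), and 1.79 without PKO young 3, where it was called (edgeR adjusted p = 0.0132).

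Trp63 did not separate the tumours from each other or from epidermis of the same genotype. The log2 difference was -0.35 in DKO against PKO tumours (95% interval -1.72 to 1.02), with 0.12 in its place without PKO cSCC 1. It was 0.71 in PKO cSCC against young PKO (-0.45 to 1.88) and -0.40 in DKO cSCC against young DKO (-1.56 to 0.76). Neighbouring groups in the order of mean Trp63 all overlapped.

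Set against the keratinocyte markers, the Trp63 level of young DKO and of young WKO overlapped that of young WT. Per 1000 CPM of summed basal markers there were 56.2, 52.6 and 33.6 CPM of Trp63 in young DKO and 37, 25.1 and 32.8 CPM in young WKO, against 31.9, 63.5 and 58.3 CPM in young WT. Of these 8 markers 7 are also among the 32 reported p63 targets described below. Dividing Trp63 by them can remove a rise of Trp63 itself, so this scale cannot separate the rise of Trp63 from that of the markers. All 8 basal markers were called higher in young DKO and in young WKO, with median log2 fold changes of 2.28 and 2.81. The T and NK cell markers had 5 of 10 called lower in young DKO and 1 of 10 in young WKO, and erythrocyte markers 5 of 6 and 6 of 6. The part of these shifts in the higher Trp63 was not tested.

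**Figure D3:**
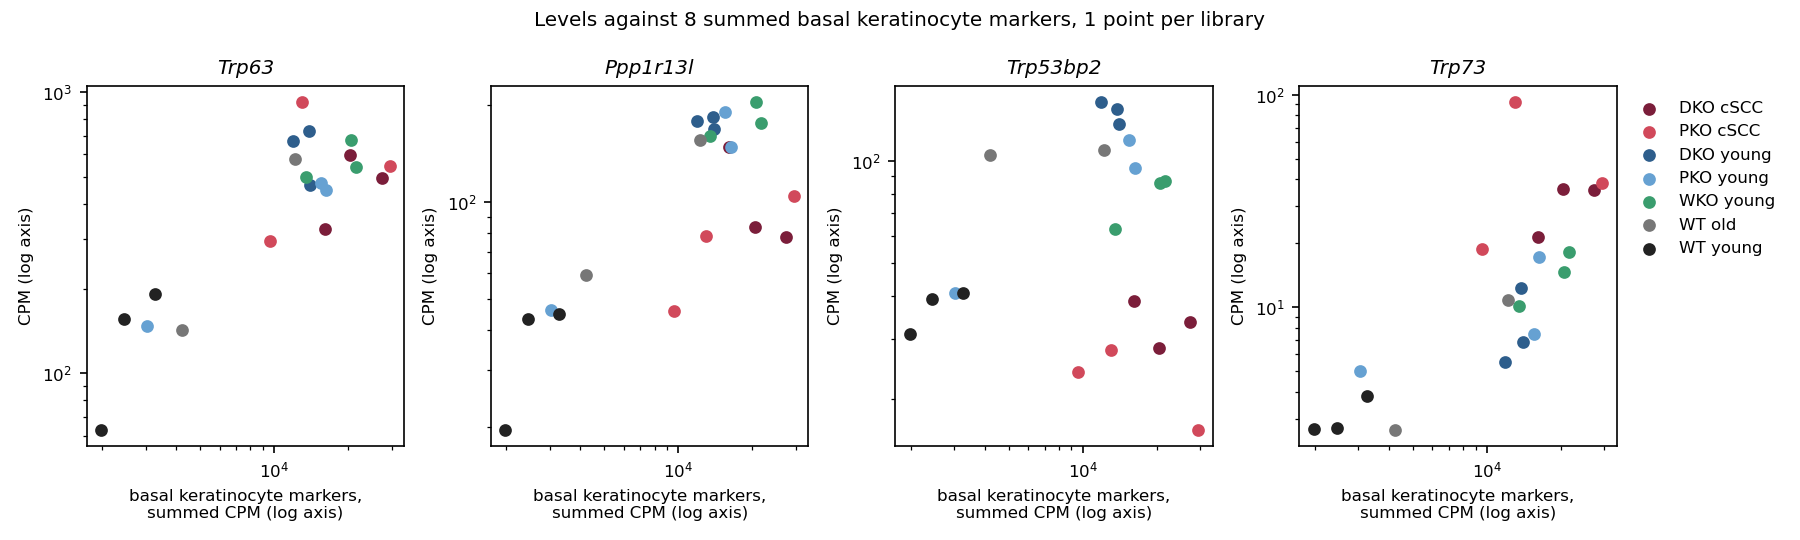
CPM of Trp63, Ppp1r13l, Trp53bp2 and Trp73 (log axes) against the summed CPM of 8 basal keratinocyte markers, 1 point per library. Young WT libraries and PKO young 3 lie at the low end of the marker sum, and the tumours carry less Trp53bp2 and more Trp73 than young knockout epidermis at marker sums that overlap.

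Trp73 has separate starts for its long TA and short ΔN forms, and gene counts add the forms up. The 250 bases upstream of each start in RefSeq (GRCm38.p6, another build than the mm39 named for the counts) are shown because Trp73 was called in young DKO and WKO against WT and in PKO cSCC against young PKO. Capitals mark the GC box GGGCGG on either strand, a motif bound by SP1 family factors.
Trp73, chr4:154139876-154140125, minus strand: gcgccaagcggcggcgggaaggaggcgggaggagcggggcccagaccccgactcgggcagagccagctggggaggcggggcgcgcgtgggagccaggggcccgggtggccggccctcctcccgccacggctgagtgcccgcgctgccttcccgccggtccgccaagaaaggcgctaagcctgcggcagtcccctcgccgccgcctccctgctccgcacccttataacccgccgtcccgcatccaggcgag
Trp73, chr4:154097174-154097423, minus strand: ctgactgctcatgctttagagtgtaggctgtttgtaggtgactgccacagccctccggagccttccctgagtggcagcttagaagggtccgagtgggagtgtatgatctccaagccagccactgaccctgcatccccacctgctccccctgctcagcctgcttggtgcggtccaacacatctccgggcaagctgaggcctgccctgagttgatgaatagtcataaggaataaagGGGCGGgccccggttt
The first window is 77.2% GC and holds no GC box, and the second is 58.4% GC and holds 1. A GC box is in 32.7% of 32851 such windows. No match to the AP-1 motif TGANTCA, the E2F motif TTTNGCGC or the p53 family decamer was found in either window, on either strand, against 6.75%, 1.13% and 7.13% of all windows.

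Trp73 had 36.1, 35.8 and 21.5 CPM in DKO tumours, and 92, 18.9 and 38.4 CPM in PKO tumours. Young libraries had 5.56, 12.3 and 6.85 CPM in DKO, 17.3, 7.48 and 5.02 CPM in PKO and 10.1, 18.2 and 14.7 CPM in WKO. WT epidermis had 10.8 and 2.66 CPM when old and 2.67, 2.72 and 3.84 CPM when young. After TMM scaling every tumour library was above every epidermis library, and every young knockout library was above every young WT library. The separation of the tumours depended on the scaling. Scaled to library totals alone, DKO cSCC 3 and PKO cSCC 2 had 18 and 20 CPM. These were below WKO young 2 and PKO young 1, at 20.5 and 20.3 CPM. Trp73 rose in PKO cSCC against young PKO by 2.32 on the log2 scale (SE 0.61, adjusted p = 0.0245, edgeR). That call was lost without PKO young 2, PKO young 3 or PKO cSCC 1 (edgeR adjusted p 0.0798 to 0.114), and the value was 1.53 without PKO cSCC 1 and 2.99 without PKO young 1. In DKO cSCC against young DKO the difference was 1.92 (95% interval 0.64 to 3.19, edgeR adjusted p = 0.0644), which passed the threshold without WT old 1, WT old 2, PKO cSCC 1 or PKO cSCC 2 (edgeR adjusted p 0.0464, 0.0457, 0.0409 and 0.0419). Against WT old it was 2.93 in PKO cSCC (1.02 to 4.85, edgeR adjusted p = 0.09) and 2.23 in DKO cSCC (0.38 to 4.08, edgeR adjusted p = 0.29). With 1 library left out these ran from 2.12, without PKO cSCC 1, to 4.32, without WT old 1, in PKO cSCC and from 1.56, without WT old 2, to 3.61, without WT old 1, in DKO cSCC.

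In young epidermis Trp73 rose in WKO against WT by 2.21 (SE 0.48, adjusted p = 0.0157, edgeR). The call was lost without WT young 1, WT young 2 or WKO young 2 (edgeR adjusted p 0.0542 to 0.0557). In DKO against WT the value was 1.41 (SE 0.47, adjusted p = 0.0485, edgeR), and 10 of the 12 omissions of 1 library ended that call (edgeR adjusted p 0.05 to 0.166), as did limma voom (adjusted p = 0.0542) and a replicate block (edgeR adjusted p = 0.0907). In PKO against WT it was 1.69 (95% interval 0.63 to 2.74, edgeR adjusted p = 0.0713), with 2.04 without PKO young 3 (edgeR adjusted p = 0.0151) and 1.05 without PKO young 1. Whether Wwox deletion acts differently with and without p53 was tested as the interaction (DKO minus PKO) minus (WKO minus WT). Its value for Trp73 was -2.49 (95% interval -3.95 to -1.02, edgeR adjusted p = 0.115), and without PKO young 3 it passed the threshold at -2.83 (edgeR adjusted p = 0.0285), while without PKO young 1 it was -1.85. No member was called in this interaction, and 0% of all genes were. An unadjusted p under 0.05 (edgeR) was reached by 2 members and by 3382 of 16627 genes. DESeq2 called 1 member and 1326 genes there.

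Per 1000 CPM of basal markers, Trp73 was 1.77, 1.31 and 1.33 CPM in DKO cSCC, 7.07, 1.97 and 1.3 CPM in PKO cSCC, 0.466, 0.891 and 0.491 CPM in young DKO, 1.06, 0.483 and 1.65 CPM in young PKO, 0.753, 0.841 and 0.713 CPM in young WKO, 0.883 and 0.631 CPM in WT old and 1.35, 1.11 and 1.17 CPM in young WT. On this scale DKO tumours were above young DKO epidermis in every library, while PKO cSCC overlapped young PKO, the comparison in which Trp73 was called. Young WKO and DKO were below young WT, the opposite order to that of the plain CPM values. The marker sum was 13500 to 21600 CPM in young WKO and 11900 to 14000 CPM in young DKO, against 1980 to 3270 CPM in young WT. Dividing by it favours lower knockout values, so this scale gives no separate support for a lower Trp73 level.

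Mdm4 had 33.3, 26.2 and 41.1 CPM in DKO tumours, and 22.1, 18.4 and 15.3 CPM in PKO tumours. In the young mice it had 48.8, 76.6 and 44.6 CPM in DKO, 55, 49.4 and 45.7 CPM in PKO and 45.7, 48.3 and 48.6 CPM in WKO. The WT libraries held 112 and 55.9 CPM when old and 62, 65.2 and 56.8 CPM when young. All 6 tumour libraries were below all 14 epidermis libraries. Mdm4 fell in PKO cSCC against young PKO by 1.43 on the log2 scale (SE 0.26, adjusted p = 0.00518, edgeR), a call kept without any 1 library (largest edgeR adjusted p = 0.0203). In DKO cSCC against young DKO the difference was -0.76 (95% interval -1.30 to -0.22, edgeR adjusted p = 0.0784), and without WT old 1 or WT old 2 it passed (edgeR adjusted p 0.0456 and 0.0453).

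DKO tumours held more Mdm4 than PKO tumours in every library, but that difference was not called. Its log2 value was 0.79 for DKO cSCC against PKO cSCC (95% interval 0.05 to 1.54, edgeR adjusted p = 0.61). Against WT old the difference was -2.11 in PKO cSCC (-2.93 to -1.29, edgeR adjusted p = 0.0526) and -1.31 in DKO cSCC (-2.13 to -0.50, edgeR adjusted p = 0.225), and without DKO cSCC 3 the PKO value passed (edgeR adjusted p = 0.0418). Both depended on the 2 old libraries, with -1.47 in PKO cSCC and -0.68 in DKO cSCC without WT old 1, and -2.51 and -1.73 without WT old 2. In young epidermis Mdm4 stood at -0.38 in WKO against WT (-0.80 to 0.05) and at -0.30 in PKO against WT (-0.72 to 0.13), and neither was called. In WT old against young it was 0.47 (-0.14 to 1.08), and -0.13 without WT old 1. Per 1000 CPM of basal markers Mdm4 was 1.7, 1.92 and 0.518 CPM in PKO cSCC, against 3.37, 3.19 and 15 CPM in young PKO, without overlap. The marker sum reached 29500 CPM in PKO cSCC and 16300 CPM in young PKO. Dividing by it favours lower tumour values, so this scale gives no separate support for the fall.

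The ASPP genes share a C-terminal module of ankyrin repeats and an SH3 domain that contacts p53 family proteins. Their upstream windows, 250 bases each from RefSeq (GRCm38.p6), are shown because Trp53bp2 and Ppp1r13l were called in several comparisons and Ppp1r13b in none. Capitals again mark the GC box GGGCGG on either strand.
Trp53bp2, chr1:182408917-182409166, plus strand: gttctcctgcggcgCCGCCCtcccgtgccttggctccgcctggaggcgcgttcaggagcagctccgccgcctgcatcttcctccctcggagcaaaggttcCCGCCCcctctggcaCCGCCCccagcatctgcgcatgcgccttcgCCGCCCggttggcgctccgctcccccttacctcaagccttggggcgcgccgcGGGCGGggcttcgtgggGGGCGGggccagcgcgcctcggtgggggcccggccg
Ppp1r13l, chr7:19360966-19361215, plus strand: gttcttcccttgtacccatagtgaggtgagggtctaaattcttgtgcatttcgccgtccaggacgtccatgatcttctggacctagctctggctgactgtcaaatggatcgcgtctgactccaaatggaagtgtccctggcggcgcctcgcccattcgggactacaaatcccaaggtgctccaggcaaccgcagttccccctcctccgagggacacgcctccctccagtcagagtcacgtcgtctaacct
Ppp1r13b, chr12:111908056-111908305, minus strand: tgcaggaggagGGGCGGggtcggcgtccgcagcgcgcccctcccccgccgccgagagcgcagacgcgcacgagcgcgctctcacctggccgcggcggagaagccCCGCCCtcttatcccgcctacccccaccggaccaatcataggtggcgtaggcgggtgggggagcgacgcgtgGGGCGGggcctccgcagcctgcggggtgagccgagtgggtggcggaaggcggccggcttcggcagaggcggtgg
The Trp53bp2 window is 76.4% GC with 6 GC boxes, that of Ppp1r13b is 76.8% GC with 3, and that of Ppp1r13l is 56.8% GC with 0. None of the 3 held the AP-1 motif TGANTCA, the E2F motif TTTNGCGC or the p53 family decamer. Windows were found for 6 of the 7 members, and among the windows of the other members the AP-1 motif occurred once, upstream of 1 of 2 Mdm4 starts, and the p53 family decamer once, upstream of Trp53.

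Trp53bp2, which encodes the pro-apoptotic p53 co-factor and polarity protein ASPP2, had 28.2, 33.6 and 38.7 CPM in DKO tumours, and 27.8, 24 and 16.3 CPM in PKO tumours. Among young libraries it stood at 148, 142 and 128 CPM in DKO, 95, 115 and 41 CPM in PKO and 63, 87 and 86.2 CPM in WKO. Levels in WT were 107 and 104 CPM when old and 31.1, 39.4 and 41 CPM when young. After TMM scaling the young DKO libraries were above all others, and tumours and young WT epidermis formed the low end. Scaled to library totals alone, DKO young 3 had 100 CPM. That was below PKO young 1 (112 CPM), WT old 2 (108 CPM) and WT old 1 (101 CPM). Trp53bp2 fell in DKO cSCC against young DKO by 2.06 on the log2 scale (SE 0.3, adjusted p = 0.00283, edgeR) and in PKO cSCC against young PKO by 1.88 (SE 0.3, adjusted p = 0.00325, edgeR). Both calls held without any 1 library and under every other setting tried.

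In young epidermis Trp53bp2 rose in DKO against WT by 1.90 (SE 0.32, adjusted p = 0.0062, edgeR), a call that held without any 1 library and under every other setting tried. In WKO against WT it rose by 1.08 (SE 0.31, adjusted p = 0.0364, edgeR), but not without WT young 1, 2 or 3 or without WKO young 2 or 3 (edgeR adjusted p 0.0651 to 0.104) or with a replicate block (edgeR adjusted p = 0.0561). In PKO against WT the difference was 1.17 (95% interval 0.47 to 1.87, edgeR adjusted p = 0.0644), and 1.53 without PKO young 3 (edgeR adjusted p = 0.0011). DKO libraries did not overlap those of PKO or WKO after TMM scaling. Scaled to library totals alone DKO and PKO overlapped, with 100 CPM in DKO young 3 and 112 CPM in PKO young 1. The log2 differences were 0.73 against PKO (0.04 to 1.42, edgeR adjusted p = 0.291) and 0.82 against WKO (0.13 to 1.51, edgeR adjusted p = 0.3), neither called. In WT old against young Trp53bp2 rose by 1.52 (SE 0.32, adjusted p = 0.0418, edgeR). That call was lost in 12 of 14 omissions of 1 library (edgeR adjusted p 0.0527 to 0.135), held only without PKO young 2 or PKO young 3, and compares 2 old with 3 young libraries.

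Per 1000 CPM of basal markers the place of young WT relative to young DKO and WKO was the opposite. Trp53bp2 was 12.4, 10.3 and 9.15 CPM in DKO, 5.82, 7.44 and 13.5 CPM in PKO and 4.68, 4.02 and 4.18 CPM in WKO, against 15.7, 16.1 and 12.5 CPM in young WT. Every DKO and WKO library was thus below every WT library on that scale, and WT old, at 8.75 and 24.6 CPM, overlapped young WT. Young DKO stayed above young WKO in every library, and young PKO overlapped young WT. The marker sum was 11900 to 14000 CPM in DKO and 13500 to 21600 CPM in WKO, against 1980 to 3270 CPM in WT. Dividing by it favours lower knockout values, so this scale gives no separate support for a lower Trp53bp2 level. Ppp1r13b, called in neither comparison, showed the same order. It stood at 4.04, 2.96 and 2.5 CPM in young DKO, against 17.7, 18.8 and 13.6 CPM in young WT. Markers of differentiated keratinocytes, such as Krt10 and Ivl, had 6 of 10 called higher in DKO against WT and 4 of 10 in WKO against WT, with summed levels of 9620 to 13900 CPM in DKO and 6580 to 8690 CPM in WKO, against 432 to 984 CPM in WT. The part of these shifts in the higher Trp53bp2 was not tested.

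Against WT old the tumours stood at -2.14 in PKO cSCC (95% interval -2.77 to -1.52) and -1.63 in DKO cSCC (-2.25 to -1.01). The edgeR adjusted p was 0.05 in PKO cSCC, which did not pass, and 0.164 in DKO cSCC. Without DKO cSCC 3 the PKO cSCC value passed (edgeR adjusted p = 0.0418). DKO against PKO tumours did not overlap, with a difference of 0.51 (-0.06 to 1.07, edgeR adjusted p = 0.62). Scaled to library totals alone these tumours overlapped, with 22.7 CPM in DKO cSCC 1 and 25.5 CPM in PKO cSCC 2. Per 1000 CPM of basal markers Trp53bp2 stood at 1.38, 1.23 and 2.4 CPM in the DKO tumours, and at 2.13, 2.5 and 0.553 CPM in the PKO tumours. Each tumour library was thus below all young libraries of its genotype on this scale. The marker sum itself was higher in DKO cSCC (16100 to 27300 CPM) than in young DKO (11900 to 14000 CPM). In PKO cSCC it reached 29500 CPM, against 16300 CPM in young PKO. Dividing by it therefore favours lower tumour values, so this scale gives no separate support for the fall. Keratinocyte markers did not all move with Trp53bp2 in the tumours. The 8 basal markers had median log2 fold changes of 0.77 in DKO and 1.05 in PKO against young epidermis of the same genotype, with 0 called in each. The 10 differentiated keratinocyte markers summed to 604, 2740 and 9460 CPM in DKO cSCC, against 9620 to 13900 CPM in young DKO, and to 237 to 2250 CPM in PKO cSCC, against 976 to 10800 CPM in young PKO. Their median log2 fold change was -0.42 in DKO, with 1 called higher, and -1.69 in PKO, with 1 called higher and 1 lower. Of 10 hair follicle markers 4 were called lower in PKO cSCC against young PKO (median -2.73) and 0 in DKO cSCC against young DKO (median -0.32). Their summed levels overlapped, at 2240 to 3620 CPM in DKO cSCC against 2430 to 5530 CPM in young DKO, and at 901 to 7040 CPM in PKO cSCC against 1590 to 2650 CPM in young PKO. The part of these shifts in the lower Trp53bp2 was not tested.

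Ppp1r13l encodes iASPP, whose loss in mice is known to affect skin and heart. It had 83.7, 77.8 and 148 CPM in DKO tumours, and 78.1, 45.7 and 104 CPM in PKO tumours. In young epidermis it had 179, 184 and 169 CPM in DKO, 148, 190 and 46.3 CPM in PKO and 160, 176 and 204 CPM in WKO. WT epidermis had 156 and 59.2 CPM when old and 19.6, 43.3 and 44.8 CPM when young. Young DKO and WKO libraries lay above young WT, with PKO young 3 just above the top WT library. Ppp1r13l rose by 2.30 in DKO against WT (SE 0.46, adjusted p = 0.00852, edgeR) and by 2.32 in WKO against WT (SE 0.46, adjusted p = 0.013, edgeR). Both calls held without any 1 library and under every other setting tried. In PKO against WT the difference was 1.83 (95% interval 0.83 to 2.83, edgeR adjusted p = 0.0571), and 2.26 without PKO young 3 (edgeR adjusted p = 0.0015).

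The interaction for Ppp1r13l was -1.85 (95% interval -3.23 to -0.47, edgeR adjusted p = 0.151), and -2.28 without PKO young 3 (edgeR adjusted p = 0.0165). The interaction that asks whether the DKO against PKO difference is another in tumours than in young epidermis called no member and 0% of genes. An unadjusted p under 0.05 (edgeR) was reached by 1 member and by 2296 of 18164 genes. DESeq2 called 0 members and 480 genes there. In tumours against young epidermis Ppp1r13l stood at -0.78 in DKO (-1.79 to 0.23) and -0.75 in PKO (-1.76 to 0.26), not called. DKO against PKO tumours differed by 0.38 (-0.69 to 1.45). In WT old against young it was 1.61 (0.45 to 2.76, edgeR adjusted p = 0.11), and without PKO young 3 it passed (edgeR adjusted p = 0.0364). It was 0.73 without WT old 1 and 2.14 without WT old 2. Per 1000 CPM of basal markers Ppp1r13l was 15, 13.3 and 12.1 CPM in young DKO and 11.9, 8.14 and 9.89 CPM in young WKO, against 9.91, 17.6 and 13.7 CPM in young WT, so the groups overlapped on that scale. The marker sum was higher in young DKO and WKO than in young WT, so dividing by it favours lower knockout values. DKO cSCC held 4.11, 2.85 and 9.16 CPM and PKO cSCC 6, 4.77 and 3.53 CPM on it.

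Ppp1r13b, which encodes ASPP1, was the steady member. It had 42.4, 29.4 and 47.6 CPM in DKO tumours, and 45.1, 34.5 and 35.1 CPM in PKO tumours. Young libraries had 48.2, 41 and 34.8 CPM in DKO, 65.6, 37.6 and 41.9 CPM in PKO and 44.3, 44.3 and 45.7 CPM in WKO. The WT libraries held 40.1 and 46.6 CPM when old and 35, 46.2 and 44.6 CPM when young. Every group overlapped every group it was compared with. The largest absolute log2 fold change over 11 comparisons was 0.34, in PKO cSCC against young PKO, where the value was -0.34 (95% interval -0.82 to 0.14). That largest change ran from 0.11, without PKO young 1, to 0.49, without PKO young 2. Its coefficient of variation over the 20 libraries was 17.8%, against 114% for Trp73, 78.5% for Trp53, 61.8% for Trp53bp2, 52.6% for Ppp1r13l, 50.8% for Trp63 and 44.8% for Mdm4.

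Levels of different genes were compared per kb of exon, from the union of annotated exons. On that scale Trp63 had the highest group mean of the 7 members in every group, with 56.2 ± 16.2 CPM per kb in DKO cSCC, 69.9 ± 37.4 CPM per kb in PKO cSCC and 16.3 ± 7.85 CPM per kb in young WT (SD, n = 3 each). Trp73 had the lowest mean in each of the 5 epidermis groups, with 0.557 ± 0.119 CPM per kb in young WT (SD, n = 3). In young DKO that place rests on DKO young 3, with 5.23 CPM per kb of Trp53 and 1.24 of Trp73. In DKO young 1 and 2 Trp53, at 0.818 and 0.808 CPM per kb, was below Trp73, at 1 and 2.23. Trp53 was also below Trp73 in PKO young 1, at 1.46 against 3.12 CPM per kb. In the tumours the lowest mean was that of Mdm4 in DKO (2.26 ± 0.502 CPM per kb) and of Trp53 in PKO (0.782 ± 0.493 CPM per kb; SD, n = 3 each). The place of Mdm4 rests on the library labelled DKO cSCC 3, with 11.3 CPM per kb of Trp53, since in the other DKO tumours Trp53, at 0.677 and 0.707 CPM per kb, was below Mdm4, at 2.25 and 1.77. The Trp63 to Trp73 ratio per kb was 10.9, 9.08 and 10 in DKO cSCC and 6.59, 10.3 and 9.38 in PKO cSCC, against 79.5, 38.9 and 45.2 in young DKO and 17.2, 41.9 and 19.2 in young PKO. It was 15.5 or more in every epidermis library and below 15.5 in every tumour, so Trp73 RNA stood closer to Trp63 RNA in tumours.

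The balance among the ASPP genes also differed between groups. The Trp53bp2 to Ppp1r13b ratio per kb was 0.745, 1.28 and 0.911 in DKO cSCC and 0.69, 0.779 and 0.521 in PKO cSCC. In young epidermis it was 3.45, 3.88 and 4.11 in DKO, 1.62, 3.44 and 1.1 in PKO, 1.59, 2.2 and 2.12 in WKO, and it was 2.98 and 2.5 in WT old and 0.993, 0.957 and 1.03 in young WT. The Ppp1r13l to Trp53bp2 ratio was 3.64, 2.83 and 4.69 in DKO cSCC and 3.45, 2.34 and 7.82 in PKO cSCC, against 1.48, 1.59 and 1.62 in young DKO and 1.9, 2.02 and 1.38 in young PKO. In tumours the inhibitory iASPP gene was therefore expressed at a higher ratio to the ASPP2 gene than in young epidermis of the same genotype, in every library, and young WKO, at 3.11, 2.48 and 2.9, lay within the tumour range. These ratios are descriptions of single libraries with no test.

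**Figure D4:**
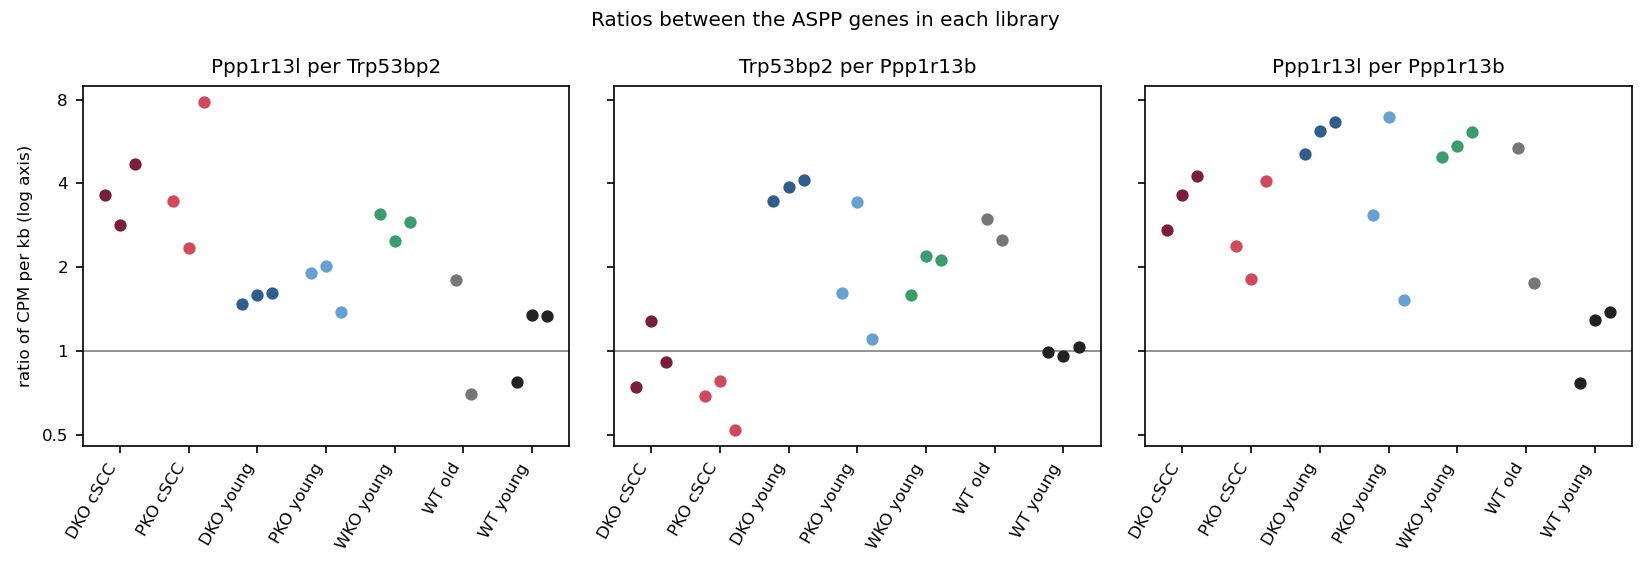
Ratios of CPM per kb between the ASPP genes in each library (log axis), by group. Tumour libraries lie at 2.34 to 7.82 for Ppp1r13l per Trp53bp2, above all young DKO and PKO libraries.

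Trp53 in the comparisons followed the per-library values. For PKO cSCC against WT old the log2 difference was -3.18 (95% interval -6.04 to -0.33, edgeR adjusted p = 0.149) and in PKO cSCC against young PKO -2.31 (-4.40 to -0.21, edgeR adjusted p = 0.137), and the second passed without DKO cSCC 3 (edgeR adjusted p = 0.0427). In young DKO against WT it was -1.93 (-3.45 to -0.41, edgeR adjusted p = 0.0591), and -3.39 without the library labelled DKO young 3, where it was called (edgeR adjusted p = 0.00856). With every library in, this lower level was called by DESeq2 (adjusted p = 0.0154) and limma voom (adjusted p = 0.00197). It was also called by edgeR without a low-count filter, at a minimum of 10 CPM and with a replicate block (edgeR adjusted p 0.0309, 0.0449 and 0.0384). In young PKO against WT it was -1.14 (-2.62 to 0.33), and in young WKO against WT 0.30 (-1.16 to 1.75). In DKO against PKO tumours it was 2.35 (-0.29 to 4.99), and -0.20 without the library labelled DKO cSCC 3. Leaving both of those libraries out kept the calls of Trp63, Trp53bp2 and Ppp1r13l in young DKO against WT and of Trp53bp2 in DKO cSCC against young DKO.

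Of 25 p53 regulators in the table (26 listed), 24 were tested in the young fit, and 5 were called higher and 1 lower in young DKO against WT (median log2 fold change 0.31, all genes -0.04), where 15.8% and 12.1% of all genes were called, so their share was near the background. Mdm2, encoding the p53 ubiquitin ligase and itself a p53 target, rose by 1.34 (SE 0.33, adjusted p = 0.0162, edgeR), with 107 ± 12.8 CPM in DKO and 41.8 ± 9.55 CPM in WT (SD, n = 3 each). Sirt1, which encodes a p53 deacetylase, and Rpl11, whose ribosomal protein restrains MDM2, rose by 0.86 and 0.88. Atr, encoding a damage-signalling kinase, fell by 0.76 on the log2 scale, and in WKO against WT Rpl11 rose by 0.82 and Atr fell by 0.69, the 2 calls of that comparison. In PKO cSCC against young PKO, 3 regulators rose and 3 fell of 25 (median -0.07, all genes -0.02), where 5.33% and 6.16% of all genes did. For DKO cSCC, 2 rose and 5 fell relative to young DKO (median -0.25, all genes 0.05), against 3.27% and 4.03% of all genes.

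Cdkn2a, which encodes the MDM2 antagonist ARF and the cell cycle inhibitor p16, was the largest of these. It averaged 51.6 ± 11.4 CPM in PKO cSCC and 0.44 ± 0.109 CPM in young PKO (log2 fold change 6.83, SE 1.38, adjusted p = 0.00863, edgeR; SD, n = 3 each). In DKO cSCC it averaged 63.5 ± 67 CPM, against 1.84 ± 1.37 CPM in young DKO (log2 fold change 5.07, SE 1.24, adjusted p = 0.0232, edgeR; SD, n = 3 each), with an SD among tumours above their mean. Mdm2 fell by 1.81 on the log2 scale in DKO cSCC against young DKO (adjusted p = 0.00439, edgeR) and by 1.12 in PKO cSCC against young PKO (adjusted p = 0.023, edgeR). Sirt1 fell in both, by 1.05 and 0.95.

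Of 14 genes whose products bind ASPP proteins, 6 rose and 1 fell in young DKO against WT (median 0.57, all genes -0.04). In young WKO against WT 5 rose and 1 fell (median 0.38, all genes -0.03). Of all genes, 15.8% rose and 12.1% fell in DKO, and 13.1% rose and 8.34% fell in WKO. Yap1, the Hippo pathway co-activator bound by ASPP proteins, rose by 1.47 in DKO and 1.45 in WKO. Pard3, encoding the polarity protein PAR3 that localizes with ASPP2 at junctions, rose by 1.73 and 1.60. Bcl2, encoding the anti-apoptotic protein that binds ASPP2, fell by 1.75 and 2.11 on the log2 scale. Ppp1cb, encoding a catalytic subunit of protein phosphatase 1, rose by 0.90 in DKO, and it fell by 0.90 on the log2 scale in DKO cSCC against young DKO, where Rela fell by 1.16. Those 2 were the only partners called in DKO cSCC against young DKO, where 7.3% of all genes were called. None was called in PKO cSCC against young PKO, where 11.5% of all genes were.

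Among 29 textbook p53 targets, 6 rose and 3 fell in young DKO against WT (median 0.38, all genes -0.04), and 5 rose and 2 fell in young WKO against WT (median 0.46, all genes -0.03). These shares were near those of all genes, of which 15.8% rose and 12.1% fell in DKO, and 13.1% rose and 8.34% fell in WKO. Perp, encoding a desmosomal protein that p63 also controls, rose by 2.68 in DKO (1810 ± 353 CPM, against 281 ± 115 CPM in WT; SD, n = 3 each) and by 2.32 in WKO. Btg2, an antiproliferative gene, rose by 2.0 in DKO and Plk2, encoding a stress-induced kinase, by 1.94, while Apaf1, encoding the apoptosome scaffold, fell by 1.82 in DKO and 1.55 in WKO on the log2 scale. For PKO cSCC against young PKO, 2 targets rose and 7 fell (median -0.39, all genes -0.02), where 11.5% of all genes were called. Of the same targets, 2 rose and 5 fell in DKO cSCC against young DKO (median -0.45, all genes 0.05), where 7.3% were. Btg2 fell by 3.10 and 3.19 on the log2 scale in those comparisons, and Sesn2, which encodes a stress-response inhibitor of mTORC1 signalling, by 1.67 and 2.20. Bbc3, encoding the death effector PUMA, fell by 1.66 in PKO cSCC against young PKO.

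Of 32 genes reported as direct p63 targets in keratinocytes, 22 rose and 1 fell in young DKO against WT (median 1.88, all genes -0.04). In young WKO against WT 24 rose and 0 fell (median 1.84, all genes -0.03). Of all genes, 15.8% rose and 12.1% fell in DKO, and 13.1% rose and 8.34% fell in WKO. In young PKO against WT none was called, with a median of 1.48 against -0.01 for all genes. Hbegf, encoding an EGF receptor ligand, rose by 4.91 in DKO and 3.75 in WKO, and Tfap2c, encoding the epidermal factor AP-2γ, by 1.94 and 1.64. Krt14, encoding the basal keratin whose promoter drives Cre here, rose by 3.0 in WKO. The list shares 7 genes with the 8 basal keratinocyte markers, all of which were higher in these comparisons, and their part in the list's rise was not tested. In the tumours none of the 32 was called higher than in young epidermis of the same genotype, and 4 fell in DKO and 3 in PKO (medians 0.27 and -0.09). Of all genes, 4.03% were called lower and 3.27% higher in DKO, and 6.16% lower and 5.33% higher in PKO. Satb1, encoding a chromatin organizer, fell by 3.24 in DKO cSCC and by 3.17 in PKO cSCC on the log2 scale. Zfp750, encoding a differentiation factor of keratinocytes, fell by 2.46 and 3.54.

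The genes most like each member over the 20 libraries were sought among 10416 genes by the Pearson correlation r of log2(CPM + 1), as a description over libraries that share depth, group and cell makeup. For Trp63 they were Pou3f1 (r = 0.976), Pard6g (0.966) and Tns4 (0.963). For Ppp1r13l they were Perp (0.968), Ephb6 (0.967) and Rapgefl1 (0.965), and for Trp73 Pdgfa (0.952), Rfng (0.943) and Ephb4 (0.933). Trp53bp2 was closest to Dlg2 (0.944), Pkib (0.943) and Skint10 (0.937), and Mdm4 to Ints6l (0.968), Ino80d (0.932) and Rcor3 (0.914). The best matches were lower for Trp53, with Slc35e3 (0.854), Mxd4 (0.833) and Ctdsp1 (0.806), and for Ppp1r13b, with Nipsnap1 (0.727), Ccdc136 (0.711) and Acot1 (0.7). Among the members, Trp63 and Ppp1r13l were closest (r = 0.812, Spearman's rho = 0.677), followed by Trp63 and Trp73 (0.705 and 0.606) and by Mdm4 and Trp53bp2 (0.682 and 0.598). Trp73 and Mdm4 ran opposite, at r = -0.653 and rho = -0.701.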

How the data were processed

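The authors deposited 1 table of expected counts (estimated counts, whole numbers) for 51123 gene identifiers in 20 libraries. Per the submitters' processing notes, the build was mm39, and DESeq2 1.28.1, Salmon 0.13.1, FastQC 0.11.5 and Trim Galore 0.4.1 are listed without their roles. Per the labels' protocols, a stranded low-input kit was used on 5 ng of RNA. Any use of its molecular identifiers for counting is not stated. Reads of near-identical copies are split by such estimates; the pseudogene Trp53-ps had at most 2 counts in any library. A symbol was matched for 48246 identifiers from a GRCm38 annotation, which also gave exon lengths.

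edgeR 4.0.16 in R 4.3.3 was run with TMM scaling, filterByExpr and the quasi-likelihood F test, adjusted over all genes at 0.05. Young comparisons used 12 libraries (16627 genes), DKO against PKO cSCC and cSCC against WT old 8 (16526), WT old against young 14 (17622), and cSCC against young epidermis all 20 (18164). The scripts were tested on simulated data. Alternatives were limma 3.58.1 (voom), DESeq2 1.42.0, other scalings and filters, a replicate block and leaving out libraries. Replicate numbers were not treated as pairs in the main fits. Named genes were the 7 members and Wwox, up to 4 genes of a list with the smallest p in a comparison, and the 3 genes most correlated with each member. The members and lists were chosen with earlier results of these data known.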

Additional observations from a re-analysis of the deposited data

How the results depend on the processing

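The calls of Ppp1r13l in young WKO and DKO against WT, of Trp63 and Trp53bp2 in young DKO against WT, of Mdm4 and Trp53bp2 in PKO cSCC against young PKO and of Trp53bp2 in DKO cSCC against young DKO held under all alternatives run. Where the number of members called moved, the cause was not tested. In young PKO against WT it was 0, with 3 without a low-count filter, 4 by DESeq2, 5 by limma voom and 3 without PKO young 2 and 3. In young DKO against WKO it was 0, with 1 by DESeq2 and 1 by limma voom. In PKO cSCC against WT old it was 0, with 1 under TMMwsp scaling, 4 without a filter, 2 at a minimum of 10 CPM, 3 by DESeq2, 1 without mitochondrial genes, 2 without the libraries labelled DKO young 3 and DKO cSCC 3 and 4 with all 20 libraries in the fit. In DKO cSCC against WT old it was 0, with 2 without a filter, 2 by DESeq2 and 2 with all 20 libraries. In DKO cSCC against young DKO it was 1, with 2 without a filter, 2 at 10 CPM, 3 by DESeq2 and 3 by limma voom. In WT old against young it was 1, with 2 without a filter, 2 by DESeq2, 0 by limma voom, 0 without the libraries labelled DKO young 3 and DKO cSCC 3 and 2 without PKO young 2 and 3. In the young interaction it was 0, with 1 by DESeq2, 2 by limma voom and 2 without PKO young 2 and 3.

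Over omissions of 1 library the number called ran from 1 to 4 in young WKO against WT, 0 to 4 in young PKO against WT, 3 to 4 in young DKO against WT, 0 to 2 in PKO cSCC against WT old, 2 to 4 in PKO cSCC against young PKO, 1 to 3 in DKO cSCC against young DKO, 0 to 2 in WT old against young and 0 to 2 in the young interaction. In DKO against PKO cSCC the log2 difference of Trp53 ran from -0.20 to 2.85 and that of Trp63 from -0.66 to 0.12, and Trp53 was -0.20 without the libraries labelled DKO young 3 and DKO cSCC 3. In WT old against young that of Mdm4 ran from -0.13 to 0.88. With replicate number as a block the number of members called was 0 in WT old against young and 3 instead of 4 in young WKO against WT, where Trp53bp2 was lost. It stayed at 4 in young DKO against WT, but with Trp53 in place of Trp73. Of the other settings for young DKO against WT, Trp73 was also lost under RLE and TMMwsp scaling, at 10 CPM, by limma voom, without mitochondrial genes, without the libraries labelled DKO young 3 and DKO cSCC 3 and with all 20 libraries, and Trp53 was gained without a filter, at 10 CPM, by DESeq2, by limma voom and without those libraries. Same-numbered samples did not all deviate together from their group means. The correlations of their deviations were mixed, with 0.462, -0.109 and 0.32 in young DKO against PKO and -0.383 and -0.434 in WT old against young. The numbers were therefore not treated as pairs, and whether same-numbered samples share a batch was not tested.

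Counts over all genes also depended on the tool and on the libraries fitted. In young PKO against WT edgeR called 1 gene, DESeq2 2327 and limma voom 1883. In PKO cSCC against WT old edgeR called 2 genes, or 3876 with all 20 libraries in the fit, and DESeq2 3031. In DKO cSCC against WT old edgeR called 0 and DESeq2 841, in DKO cSCC against PKO cSCC 1 and 200, in WT old against young 351 and 2186, and in the young interaction 0 and 1326.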
